A study of Homo sapiens with 8 samples.

Results

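The genes examined here encode the subunits of the receptors for glutamate and GABA: the AMPA, kainate, NMDA and delta ionotropic glutamate receptors, the metabotropic glutamate receptors, and the GABA-A and GABA-B receptors. They were chosen by gene symbol, with earlier results of these data known. Of 47 such genes, 41 were analysed, among 18377 genes in all, and the others were not analysed here. The cells were SHSY5Y, a human neuroblastoma line of neural crest origin, carried as a pair of stable lines selected with puromycin and grown on laminin. RNA was hybridised to 8 whole-transcript Affymetrix Human Gene 1.0 ST arrays, 2 for each of 4 groups: the V71 line after differentiation (DF), the PLKO line after DF, the V71 line without differentiation (NDF) and the PLKO line in NDF. DF cells had received retinoic acid in serum-containing medium and then BDNF in serum-free medium, while NDF cells stayed in growth medium with serum.

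The lines are called here by the codes in the sample titles, because the sources conflict on which of them carried the shRNA. The treatment labels give V71 as the control and PLKO as the shRNA line, whereas in the study's methods the vector of the control cells is pLKO.1-Puro. The digits of the V71 code also end the catalogue number that the methods give for the shRNA, which points to V71 as the shRNA line. The targeted gene itself was not analysed here. Every difference between lines is therefore V71 minus PLKO, and its direction relative to the shRNA is not settled by the labels. Each condition rests on 1 stable line of each kind, so a difference due to the shRNA and a difference between any pair of selected lines cannot be told apart. The study's methods call the arrays of a group biological duplicates, without saying whether these were separate cultures, and p-values measure the spread between these arrays.

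Glutamate is the main excitatory transmitter of the brain and GABA the main inhibitory one. AMPA, kainate and NMDA receptors are cation channels built of several subunits, GABA-A receptors are chloride channels of the same general design as the glycine receptor, and metabotropic glutamate receptors and GABA-B receptors act through G proteins. Peripheral neurons of the neural crest and neuroblastoma cells carry some of these receptors, and which subunits are made sets the ion selectivity, agonist affinity and drug response of the channel.

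Levels are RMA values, which are normalized probe intensities on the log2 scale, so that a difference of 1 is a doubling. Differences were taken between arrays for the same gene. A place below the lower quartile of the arrays is given as a mark of low signal only, since levels of different probe sets are not on a common scale. A gene was called changed where the Benjamini-Hochberg adjusted p of the limma test over all 28869 array rows was under 0.05 and the fold was at least 1.5. Of the 41 receptor genes, 9 lay below the lower quartile of the arrays in all 4 groups, 4 in some groups only, and 28 in none. None of the genes called below was under that quartile in any group.

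Across the whole table, arrays of a group correlated closely (lowest Spearman rho within a group 0.995, across probe sets of an array pair, which are not independent). Arrays of different groups correlated nearly as closely, with a highest rho of 0.993. The median difference over all genes was near 0 in every comparison, between -0.0047 and 0.0129. Of 13 noradrenergic markers of SHSY5Y cells, such as DBH and CHGB, none was below the lower quartile in 3 groups and 1 was in V71 DF. Some differed between the lines (V71 minus PLKO). In DF, CHGB was higher by 1.58, DBH differed by -0.74 and 11 were not called. In NDF, CHGA was higher by 0.99 and CHGB by 0.79, ELAVL4 differed by -0.66 and 10 were not called. Of 4 retinoic acid response genes, 3 were higher in DF than in NDF in both lines. RARB was higher by 3.17 in V71 and by 2.42 in PLKO, and DHRS3 by 1.92 in V71 and by 3.20 in PLKO (log2, limma adjusted p between 2.33e-07 and 3.35e-06). DHRS3 also differed between the lines, by -1.17 in DF (V71 minus PLKO). Of 6 proliferation genes, 5 were lower in DF than in NDF in V71 and 6 in PLKO, and in DF 3 of them were higher in V71 than in PLKO, MKI67 by 0.84, CCNB1 by 0.74 and TOP2A by 0.71. The part of these differences in the receptor gene differences between the lines in DF was not tested. Of 15 markers of substrate-adherent (S-type) neuroblastoma cells, 4 had lower levels in V71 DF than in PLKO DF, and 8 in V71 NDF than in PLKO NDF. Their summed linear level was 588 to 628 in V71 DF against 1086 to 1123 in PLKO DF, and 584 to 656 in V71 NDF against 1288 to 1299 in PLKO NDF. Without PDGFRA it was 503 to 559 in V71 DF against 566 to 569 in PLKO DF, and 499.7 to 563 in V71 NDF against 758 to 789 in PLKO NDF. PDGFRA made up most of the gap in both conditions, and a larger part of it in DF. Of 5 Schwann cell markers, 1 or 2 were below the lower quartile in each group and none was called; their summed level was 63.2 to 72.4. In a bulk sample, fewer cells of a type and less RNA per cell cannot be told apart.

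Differentiation moved receptor genes in both directions in both lines. In V71, 3 of the 41 receptor genes were higher in DF than in NDF and 3 were lower, against 3.98% higher and 3.55% lower among all genes. In PLKO, 4 were higher and 4 lower, against 2.88% and 4.16% of all genes. These are 14.6% of the receptor genes in V71 and 19.5% in PLKO. Of them, 5 were called with the same sign in both lines: GRIK2 and GABBR1 were higher, and GRIA2, GRID1 and GRM8 lower. The lines share no arrays, but they share the fit's estimate of spread. The 5 shared genes make up 83.3% of the 6 calls in V71 and 62.5% of the 8 in PLKO. The same overlap over all genes was not computed, so these shares show nothing particular to receptor genes. The median change over the receptor genes was -0.03 in V71 and 0.0004 in PLKO, and the median size of change was 0.0969 and 0.106, against 0.127 and 0.124 over all genes.

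**Figure D1:**
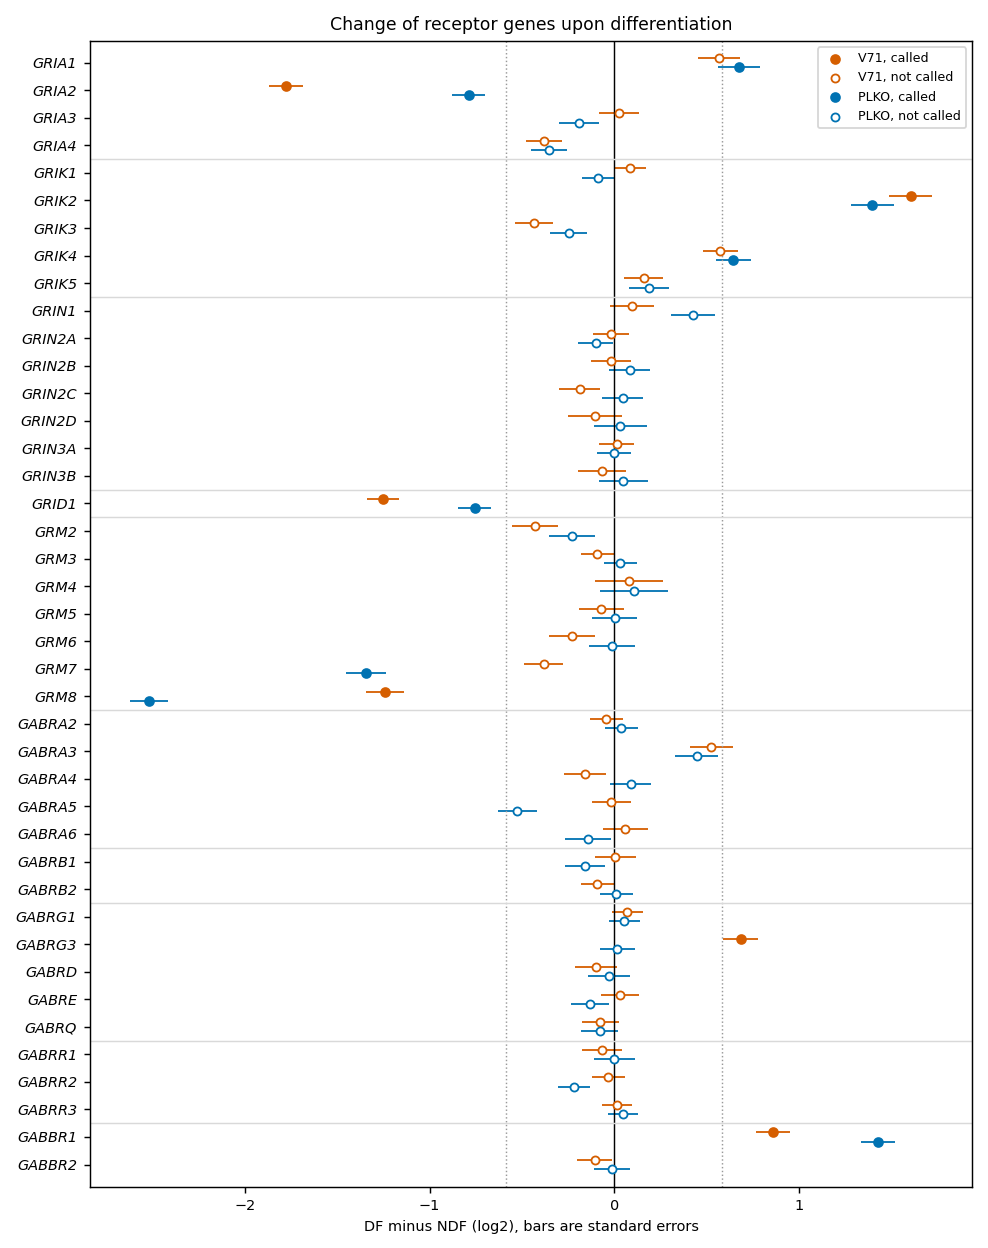
Change upon differentiation of the 41 receptor genes (x axis, DF minus NDF, log2; bars are standard errors; y axis, genes grouped by receptor class) in V71 (orange, upper point of each row) and PLKO (blue, lower point). Filled points were called, dotted lines mark a fold of 1.5; GRM8 lies farthest to the left in PLKO at -2.52 and GRIK2 farthest to the right in V71 at 1.60.

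GRM8, on chromosome 7, encodes a group III metabotropic glutamate receptor, a presynaptic autoreceptor that lowers cyclic AMP. Its value was 6.24 and 6.17 in V71 DF, against 7.47 and 7.42 in V71 NDF. In PLKO it was 4.47 and 4.21 in DF, against 6.81 and 6.91 in NDF. All 4 DF arrays were below all 4 NDF arrays, and the PLKO DF arrays were the lowest of the 8. The difference DF minus NDF was -1.24 in V71 (SE 0.10, a 2.36-fold decrease, adjusted p = 4.75e-05) and -2.52 in PLKO (SE 0.10, a 5.73-fold decrease, adjusted p = 9.15e-07). The PLKO change was the largest of any receptor gene in these comparisons.

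GRM7, on chromosome 3, encodes another group III receptor, found at the presynaptic active zone. It was 4.05 and 4.06 in V71 DF against 4.58 and 4.29 in V71 NDF, and 4.24 and 4.13 in PLKO DF against 5.49 and 5.57 in PLKO NDF. The PLKO NDF arrays alone stood above the other 6, which lay within 4.05 to 4.58. GRM7 fell by 1.34 in PLKO (log2, SE 0.11, adjusted p = 3.00e-05). In V71 the difference was -0.38 (SE 0.11, adjusted p = 0.0439), which is under the fold threshold. In PLKO, 5 of 15 S-type markers were also lower in DF than in NDF, among them VIM (-1.74), SNAI2 (-1.46) and FN1 (-1.31). The other 10 were not called, PDGFRA (0.05) among them. In V71, 1 of 15 S-type markers was lower and 1 of 15 higher. The part of S-type cells in the GRM7 difference was not tested.

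Among the AMPA receptor subunits, GRIA2 and GRIA1 moved in opposite directions. GRIA2, on chromosome 4, encodes the subunit whose edited form keeps calcium out of the channel. It read 6.30 and 6.43 in V71 DF against 8.14 and 8.14 in V71 NDF, and 6.97 and 7.10 in PLKO DF against 7.88 and 7.77 in PLKO NDF. The DF arrays were below the NDF arrays throughout, most so in V71. The difference was -1.78 in V71 (SE 0.09, a 3.43-fold decrease, adjusted p = 2.66e-06) and -0.79 in PLKO (SE 0.09, a 1.73-fold decrease, adjusted p = 0.000328). The array measures the whole transcript and does not read editing or splice forms.

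GRIA1, on chromosome 5, encodes the subunit that takes part in activity-dependent insertion of AMPA receptors at synapses. It was 4.08 and 4.23 in V71 DF against 3.57 and 3.60 in V71 NDF, and 4.71 and 4.43 in PLKO DF against 3.98 and 3.81 in PLKO NDF. Each line's DF arrays lay above its NDF arrays. The difference passed both thresholds in PLKO (0.68, SE 0.11, adjusted p = 0.00363) but missed the fold in V71 (0.57, SE 0.11, adjusted p = 0.00916). The PLKO call was lost without PLKO DF replicate 1. The change of GRIA1 was not shown to differ between the lines (difference of the changes -0.11). GRIA3 differed by 0.03 in V71 and -0.19 in PLKO and was not called, and GRIA4 differed by -0.38 and -0.35, with an adjusted p of 0.0309 and 0.0424 but under the fold threshold.

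Of the kainate receptor genes, GRIK2 had the largest change. It lies on chromosome 6 and encodes a core subunit that can form a channel on its own. It was 8.80 and 9.04 in V71 DF against 7.45 and 7.19 in V71 NDF, and 8.53 and 8.59 in PLKO DF against 7.23 and 7.10 in PLKO NDF. All 4 DF arrays were above all 4 NDF arrays. The difference was 1.60 in V71 (SE 0.12, a 3.04-fold increase, adjusted p = 2.25e-05) and 1.40 in PLKO (SE 0.12, a 2.63-fold increase, adjusted p = 4.17e-05).

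GRIK4, on chromosome 11, encodes a high-affinity kainate subunit that needs a core subunit to form a channel. It was 4.81 and 4.75 in V71 DF against 4.20 and 4.22 in V71 NDF, and 5.73 and 5.74 in PLKO DF against 5.21 and 4.97 in PLKO NDF. The DF arrays of each line were above its NDF arrays. The difference was 0.57 in V71 (SE 0.10, adjusted p = 0.00339), just under the fold threshold, and 0.64 in PLKO (SE 0.10, adjusted p = 0.00179), just over it. The PLKO call was lost without PLKO NDF replicate 3. GRIK1, GRIK3 and GRIK5 were not called. GRIK3 came closest with -0.44 in V71 (adjusted p = 0.0189).

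GRID1, on chromosome 10, encodes a delta receptor subunit, which is built like the ionotropic glutamate receptors but binds cerebellin at synapses and is not opened by glutamate. It was 4.27 and 4.30 in V71 DF against 5.57 and 5.50 in V71 NDF, and 4.63 and 4.48 in PLKO DF against 5.29 and 5.34 in PLKO NDF. All 4 DF arrays were below all 4 NDF arrays. The difference was -1.25 in V71 (SE 0.09, a 2.38-fold decrease, adjusted p = 1.76e-05) and -0.76 in PLKO (SE 0.09, a 1.69-fold decrease, adjusted p = 0.000334).

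The GABA-B receptor is an obligate pair, in which GABBR1 binds GABA and GABBR2 carries the complex to the surface and couples it to the G protein. GABBR1, on chromosome 6, was 7.08 and 7.07 in V71 DF against 6.31 and 6.12 in V71 NDF, and 7.41 and 7.53 in PLKO DF against 6.06 and 6.03 in PLKO NDF. All 4 DF arrays were above all 4 NDF arrays. The difference was 0.86 in V71 (SE 0.09, adjusted p = 0.000257) and 1.42 in PLKO (SE 0.09, adjusted p = 8.82e-06). GABBR1 has 3 rows on the array, and the other two gave 0.79 and 0.90 in V71 and 1.38 and 1.44 in PLKO. GABBR2 differed by -0.11 and -0.01, and neither value was called.

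Promoter windows from RefSeq, 250 bases before to 50 bases after each start in GRCh38.p14, were found for 33 of the 41 receptor genes, in 50 windows. They were searched on both strands for AGGTCA, the single unit of the direct repeats bound by retinoic acid receptors. They were also searched for those repeats, with 5, 2 or 1 bases between the copies, and for TGACGTCA, the cyclic AMP response element. A window with a repeat also holds the single unit, but a single unit is not such a repeat. The single unit AGGTCA was in 13.8% of all 35116 windows and in 1 of the 50 receptor windows. This is 1 of 4 windows of GRM8, the gene with the largest decrease. TGACGTCA was in 1.85% of all windows and in 1 receptor window, that of GABBR1, which rose in both lines. Repeats with 5, 2 and 1 bases between were in 2, 1 and 8 of all windows and in no receptor window. The 2 windows with a match are shown because they belong to genes called for differentiation in both lines. Both are on the minus strand and run 5′ to 3′ along the gene, and capitals mark the match, which in GRM8 is AGGTCA on the opposite strand, after the start. A match is a description of these letters and was not tested as a binding site.
GRM8, chr7:127243466-127243765: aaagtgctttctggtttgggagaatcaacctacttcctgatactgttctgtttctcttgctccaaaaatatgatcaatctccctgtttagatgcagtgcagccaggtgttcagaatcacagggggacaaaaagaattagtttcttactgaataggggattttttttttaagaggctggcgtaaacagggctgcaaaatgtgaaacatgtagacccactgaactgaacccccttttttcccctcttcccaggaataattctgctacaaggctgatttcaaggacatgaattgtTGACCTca
GABBR1, chr6:29627964-29628263: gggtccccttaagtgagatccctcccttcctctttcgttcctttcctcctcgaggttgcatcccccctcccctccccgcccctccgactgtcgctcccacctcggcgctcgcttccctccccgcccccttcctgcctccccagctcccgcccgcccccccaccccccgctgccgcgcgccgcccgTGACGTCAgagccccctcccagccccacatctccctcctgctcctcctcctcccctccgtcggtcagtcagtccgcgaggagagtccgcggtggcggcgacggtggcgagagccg

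GABRG3 was the GABA-A gene called for differentiation. It lies on chromosome 15 and encodes a gamma subunit, the kind that benzodiazepine-sensitive receptors contain. It was 4.86 and 4.68 in V71 DF against 4.14 and 4.04 in V71 NDF, and 4.02 and 4.02 in PLKO DF against 3.96 and 4.06 in PLKO NDF. The V71 DF arrays alone stood above the other 6. The difference was 0.68 in V71 (SE 0.09, adjusted p = 0.00105) and 0.02 in PLKO. The difference between these changes, 0.67, had an adjusted p over the threshold in the main analysis and under it in some of the alternatives given with the limits. GABRA3, an alpha subunit gene, was higher in DF by 0.52 in V71 and 0.45 in PLKO (adjusted p = 0.0157 and 0.0345) and did not reach the fold threshold in either line.

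Between the lines, V71 and PLKO differed in 2 receptor genes in the higher and 3 in the lower direction in NDF, against 0.615% and 1.54% of all genes. In DF, 4 were higher and 3 lower in V71, against 1.81% and 1.26% of all genes. Of the calls, 4 were shared with the same sign between DF and NDF: GABRA3 and GRIA4 were higher in V71, and GRIA3 and GRIK4 lower. DF and NDF share no arrays, but they share both lines and the fit's estimate of spread. The 4 shared genes were 57.1% of the 7 calls in DF and 80% of the 5 in NDF. Here too the overlap over all genes was not computed, so nothing particular to receptor genes is shown. The median difference over the receptor genes was -0.0015 in DF and 0.0746 in NDF, and the median size 0.101 and 0.140, against 0.105 and 0.0935 over all genes. GRIK4, GABRA3 and GRM8 stand in lists of differentiated cells that the study chose on these same arrays, so their differences here are not independent evidence.

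**Figure D2:**
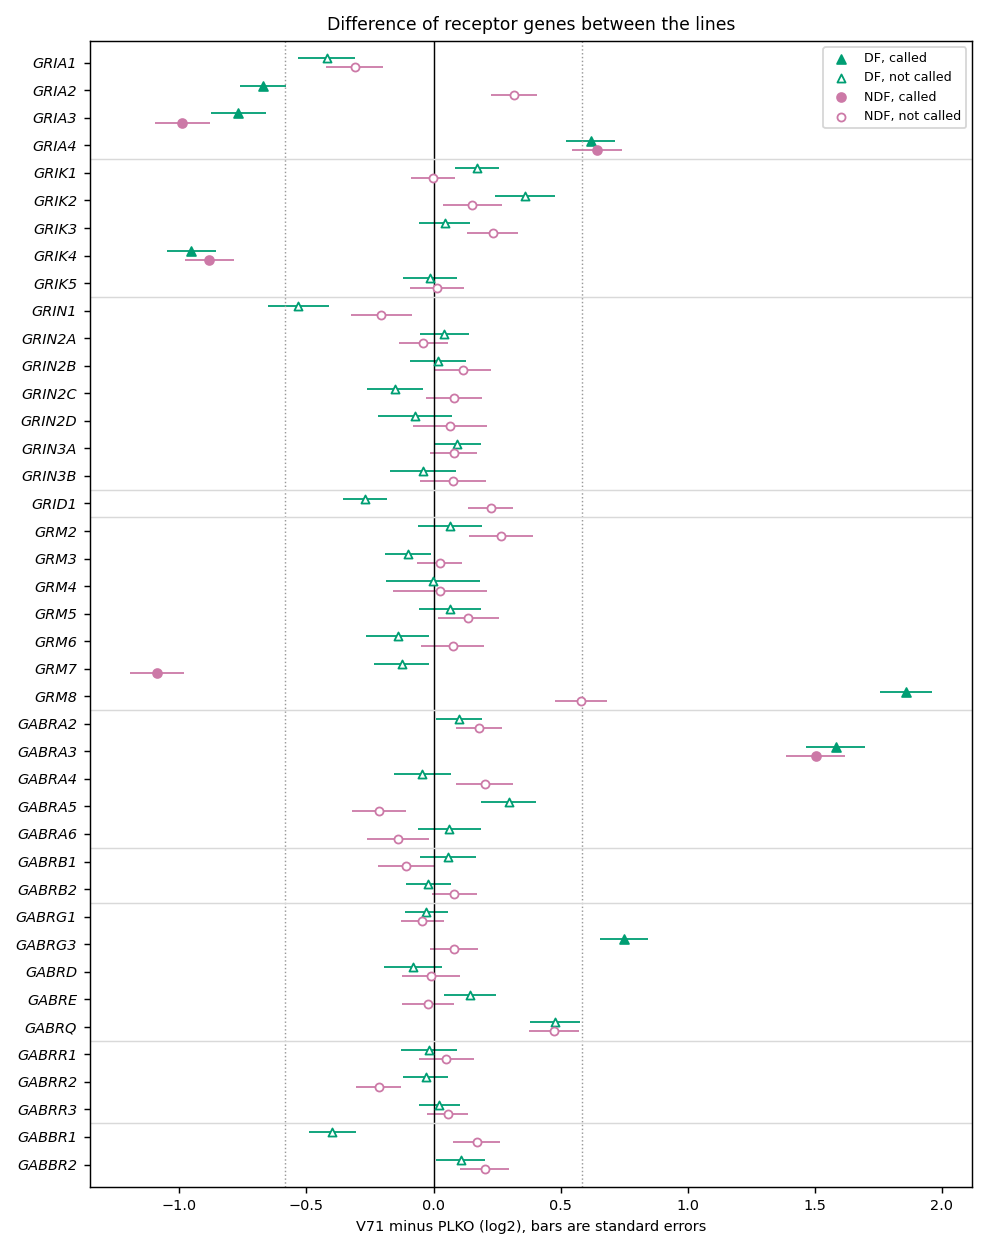
Difference between the lines for the 41 receptor genes (x axis, V71 minus PLKO, log2; bars are standard errors; y axis, genes grouped by receptor class) in DF (green triangles, upper point of each row) and NDF (pink circles, lower point). Filled points were called, dotted lines mark a fold of 1.5; GABRA3 lies at 1.58 in DF and 1.503 in NDF, while GRM8 lies at 1.86 in DF and 0.58 in NDF.

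GABRA3, on chromosome X, encodes the alpha3 subunit of the GABA-A receptor and showed the largest difference between the lines in NDF. It read 6.75 and 6.76 in V71 DF against 4.997 and 5.35 in PLKO DF, and 6.16 and 6.30 in V71 NDF against 4.75 and 4.71 in PLKO NDF. All 4 V71 arrays were above all 4 PLKO arrays. The difference was 1.58 in DF (SE 0.12, a 2.99-fold excess in V71, adjusted p = 7.33e-05) and 1.503 in NDF (SE 0.12, a 2.83-fold excess, adjusted p = 0.000112). Its neighbour on chromosome X with no coding gene between, GABRQ, encodes the theta subunit and differed by 0.48 in DF and 0.47 in NDF (adjusted p = 0.0245 and 0.0383), under the fold threshold. GABRE, which lies 2 coding genes away from GABRA3 on the other side, was not called.

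The AMPA receptor subunits GRIA3 and GRIA4 differed in opposite directions. GRIA3, also on chromosome X, was 5.13 and 5.32 in V71 DF against 5.88 and 6.10 in PLKO DF, and 5.20 and 5.19 in V71 NDF against 6.26 and 6.11 in PLKO NDF. The V71 arrays were all below the PLKO arrays. The difference was -0.77 in DF (SE 0.11, adjusted p = 0.00347) and -0.99 in NDF (SE 0.11, adjusted p = 0.000989).

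GRIA4, on chromosome 11, encodes a fast-gating AMPA subunit. It was 6.31 and 6.44 in V71 DF against 5.73 and 5.78 in PLKO DF, and 6.86 and 6.65 in V71 NDF against 6.13 and 6.09 in PLKO NDF. The V71 arrays were all above the PLKO arrays. The difference was 0.62 in DF (SE 0.10, adjusted p = 0.00610) and 0.64 in NDF (SE 0.10, adjusted p = 0.00705), so both stood close to the fold threshold of 0.585 on the log2 scale. The DF call was lost without V71 DF replicate 2, and the NDF call without V71 NDF replicate 2 or without either PLKO NDF array.

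GRIK4, whose array values are given above, was lower in V71 in both conditions, with a difference of -0.95 in DF (SE 0.10, adjusted p = 0.000515) and of -0.88 in NDF (SE 0.10, adjusted p = 0.000961). Its V71 arrays were all below its PLKO arrays. GRM7 differed by -0.13 in DF, which was not called, and by -1.09 in NDF (SE 0.11, a 2.13-fold lower level in V71, adjusted p = 0.000478). S-type markers differed in the same contrast, with 4 of 15 lower in V71 DF and 8 of 15 lower in V71 NDF. VIM (-1.74), SNAI2 (-1.61) and FN1 (-0.72) were among the 8 in NDF and not among the 4 in DF. The 4 in DF were PDGFRA (-2.81), TNC (-1.45), DCN (-1.25) and EGFR (-1.03), which were also among the 8 in NDF. The part of S-type cells in the NDF differences of GRM7, GRIA3 and GRIK4 was not tested.

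In DF, GRM8, GRIA2 and GABRG3 also differed. GRM8 was 1.86 higher in V71 (SE 0.10, 3.63-fold, adjusted p = 1.29e-05), the largest difference between the lines among the receptor genes, and in NDF 0.58 higher (SE 0.10, adjusted p = 0.0170), which fell just short of the fold threshold. GRIA2 was lower in V71 DF than in PLKO DF (difference -0.67, SE 0.09, adjusted p = 0.00279), and differed by 0.32 in NDF, which was not called. GABRG3 was 0.75 higher in V71 DF (SE 0.09, adjusted p = 0.00180) and differed by 0.08 in NDF.

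**Figure D3:**
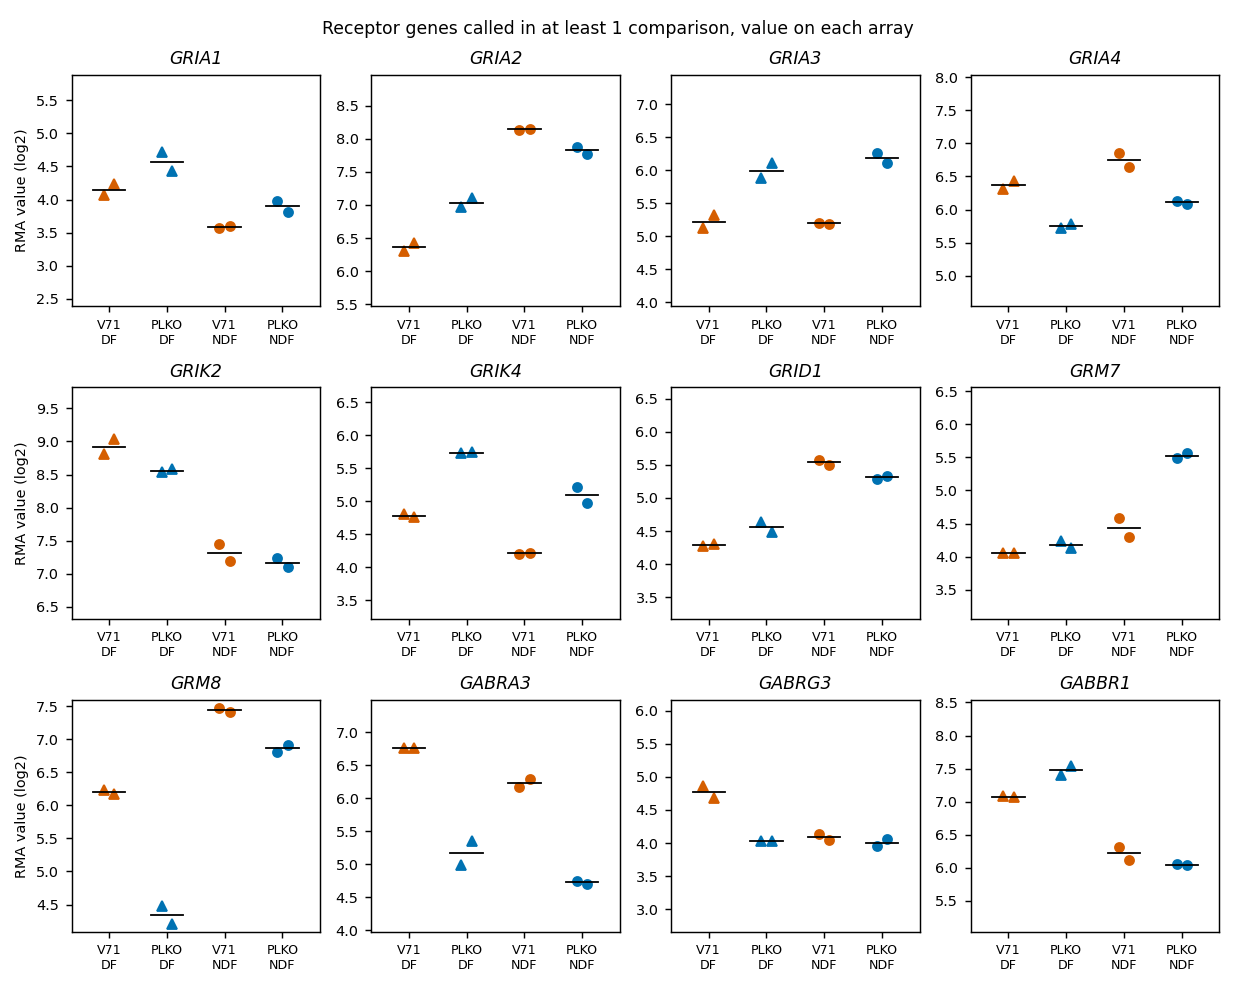
RMA values (y axis, log2; every panel spans the same range) of the 12 receptor genes called in at least 1 comparison, on each of the 8 arrays (points; triangles DF, circles NDF; orange V71, blue PLKO), with the mean of each group as a black line. The V71 and PLKO points of GABRA3, GRIA3, GRIA4 and GRIK4 do not overlap, and the PLKO NDF points of GRM7 and the V71 DF points of GABRG3 stand apart from the other 3 groups.

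The change upon differentiation itself was compared between the lines with the interaction term, which is the change in V71 minus the change in PLKO. Of the 41 receptor genes, 2 were higher and 1 lower, against 1.09% and 0.305% of all genes. For GRM8 the difference of the changes was 1.28 (SE 0.15, adjusted p = 0.00309), since it fell by 1.24 in V71 and by 2.52 in PLKO. For GRM7 it was 0.96 (SE 0.15, adjusted p = 0.0181), with changes of -0.38 in V71 and -1.34 in PLKO. For GRIA2 it was -0.99 (SE 0.13, adjusted p = 0.00631), with changes of -1.78 in V71 and -0.79 in PLKO. The GRIA2 value lost its call without PLKO NDF replicate 3, and the GRM7 value without either of the PLKO NDF arrays or any of the 4 DF arrays, each left out in turn. Of 15 S-type markers, 4 were higher in the term, among them VIM (1.44), SNAI2 (1.11) and NOTCH2 (0.85), and 11 were not called. NOTCH2 changed by 0.81 in V71 and by -0.04 in PLKO. PDGFRA changed by -0.22 in V71 and by 0.05 in PLKO, and neither change was called. The part of S-type cells in the GRM7 value was not tested. The changes of GRIK2, GABBR1 and GRID1, called in both lines, had terms of 0.21, -0.57 and -0.49, and none was called.

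The other 29 receptor genes were called in no comparison, and 16 of them were at or above the lower quartile in all 4 groups. Their differences lay between -0.53 and 0.51 across the 5 contrasts. None of the 7 NMDA receptor genes was called. GRIN1, the subunit that every NMDA receptor contains, came nearest, with 6.14 and 5.82 in V71 DF against 6.59 and 6.43 in PLKO DF, 5.91 and 5.86 in V71 NDF, and 6.16 and 6.01 in PLKO NDF. Its line difference in DF was -0.53 (SE 0.12, adjusted p = 0.0343), under the fold threshold. GRIN2B and GRIN3A were below the lower quartile in all groups. Among the metabotropic receptors, GRM2, GRM3, GRM4, GRM5 and GRM6 were not called, and GRM4 had the largest gap between the arrays of a group, 0.71 in PLKO DF.

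Many GABA-A receptor genes lie in clusters. The 4 genes on chromosome 4, GABRG1, GABRA2, GABRA4 and GABRB1, have at most 1 coding gene between neighbours. All were below the lower quartile in all 4 groups, with values of 2.23 to 2.73 over the 8 arrays, and none was called. On chromosome 15, GABRA5 and GABRG3 are adjacent. GABRG3 was called as given above, and GABRA5 was 4.18 and 4.05 in V71 DF against 4.02 and 4.24 in V71 NDF, and 3.91 and 3.73 in PLKO DF against 4.34 and 4.34 in PLKO NDF, a difference of -0.52 in PLKO (adjusted p = 0.0104) that missed the fold threshold. The adjacent pairs GABRB2 and GABRA6 on chromosome 5 and GABRR1 and GABRR2 on chromosome 6 were not called, and nor were GABRD and GABRR3. Between groups, the beta subunit gene with the largest difference was GABRB1 and the rho subunit gene GABRR2, with -0.16 and -0.22 for DF minus NDF in PLKO. Of the 15 GABA-A genes 2 were called in some comparison, of the 17 ionotropic glutamate receptor genes 7, of the 7 metabotropic receptor genes 2, and of the 2 GABA-B genes 1, against 11.3% of all genes called in at least 1 of the 5 contrasts.

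**Figure D4:**
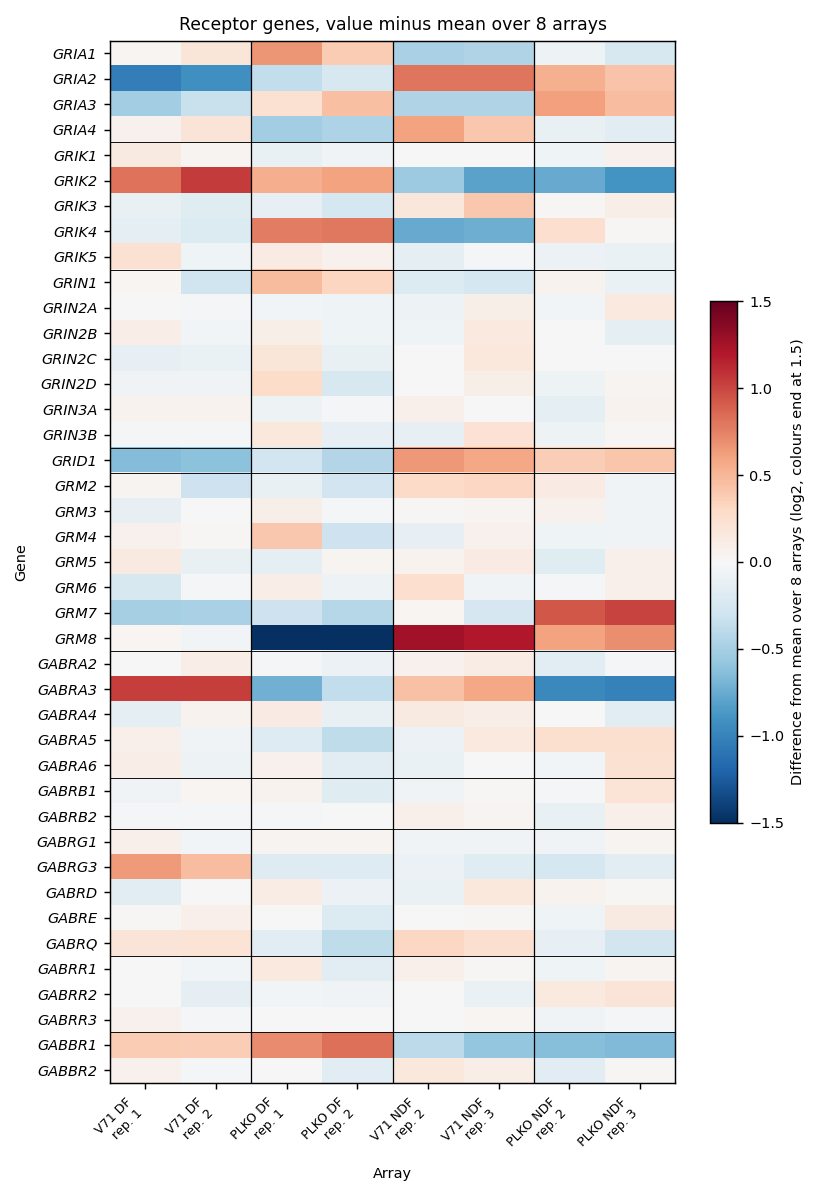
Each of the 41 receptor genes (y axis, grouped by class) on each of the 8 arrays (x axis, V71 DF, PLKO DF, V71 NDF and PLKO NDF, 2 each), coloured by its value minus its mean over the 8 arrays (log2; red higher, blue lower, colours end at 1.5, which GRM8 passes in PLKO DF). Most rows are pale; those of GRIA2, GRIK2, GRID1 and GABBR1 split by condition, and that of GABRA3 splits by line.

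The proteins that assemble, anchor and serve these receptors were examined as 71 further genes in 6 lists written with earlier results of these data known. Of these, 8 were called for differentiation in V71 and 7 in PLKO, 3 between the lines in DF and 1 in NDF, and 2 for the interaction. These are 11.3%, 9.86%, 4.23%, 1.41% and 2.82% of the 71, in that order, against 7.53%, 7.04%, 3.06%, 2.15% and 1.39% of all genes. Among 28 glutamate receptor auxiliary and binding proteins, 3 were higher and 1 lower with differentiation in V71, and 4 higher and 1 lower in PLKO. NETO2, an auxiliary subunit of kainate receptors, was 7.89 and 7.79 in V71 DF against 8.68 and 8.59 in V71 NDF, and 7.59 and 7.89 in PLKO DF against 8.54 and 8.57 in PLKO NDF. It fell by 0.79 in V71 and by 0.82 in PLKO (log2, adjusted p = 0.00101 and 0.000835). HOMER2, a postsynaptic scaffold of group I metabotropic receptors, was higher by 0.93 in V71 and 0.68 in PLKO, and CACNG4, a transmembrane AMPA receptor regulator, by 0.77 and 0.67. FRRS1L, which takes part in AMPA receptor assembly, was higher by 0.93 in V71 and 0.71 in PLKO. It was lower in V71 NDF than in PLKO NDF (difference -0.75, adjusted p = 0.00174). Its line difference in DF was -0.53 (limma adjusted p = 0.00878), under the fold threshold.

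OLFM3, a secreted protein found in AMPA receptor complexes, was 5.28 and 5.45 in V71 DF against 5.54 and 5.27 in V71 NDF, and 5.77 and 5.86 in PLKO DF against 4.88 and 4.95 in PLKO NDF. It was higher with differentiation by 0.90 in PLKO, and the difference of the changes was -0.93 (adjusted p = 0.0237). Among 16 GABA receptor anchoring proteins, RDX, which holds alpha5-containing GABA-A receptors to the cytoskeleton, fell by 0.65 with differentiation in V71 and by 1.14 in PLKO. TRAK2, a kinesin adaptor, was lower in V71 DF than in PLKO DF (difference -0.70). Its line difference in NDF was -0.41 (limma adjusted p = 0.0756), which was not called.

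Of 11 genes of glutamate synthesis and transport, SLC1A1 and SLC1A2, which encode the glutamate transporters EAAT3 and EAAT2, were called. SLC1A2 was 5.06 and 5.16 in V71 DF against 5.84 and 5.87 in V71 NDF, and 5.78 and 5.80 in PLKO DF against 5.72 and 5.61 in PLKO NDF. It was lower with differentiation in V71 (difference -0.75) and lower in V71 DF than in PLKO DF (difference -0.68), and the difference of the changes was -0.88 (adjusted p = 0.00859). SLC1A1 was lower with differentiation in V71 (difference -0.79) and lower in V71 DF than in PLKO DF (difference -0.95). Its line difference in NDF was -0.57 (limma adjusted p = 0.0363), under the fold threshold. With differentiation in PLKO it differed by -0.41 (limma adjusted p = 0.0512), which was not called. Of 9 genes of GABA synthesis, transport and breakdown, ABAT, which breaks GABA down, was higher with differentiation by 0.82 in V71 and 0.88 in PLKO, while GAD1 and GAD2, which make GABA, were not called. Neither of 2 chloride transporters nor any of 5 glycine receptor genes was called in any of the 5 contrasts.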

How the data were processed

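The deposited values are log2 probe set intensities that the authors made with RMA in Partek Genomics Suite 6.5, 1 column per array. The array annotation gave 19310 of 28869 rows exactly 1 gene, 1752 several and 7807 none. Only rows with 1 gene were named, and a gene with several rows (685 of 18377) was read from the row with the highest mean over all arrays. No further normalization was applied. With limma 3.58.1 in R 4.3.3, a model of 4 group means was fitted to all 8 arrays with moderated variance, which left 4 residual degrees of freedom and added 5.43 from the prior. It gave the line difference within DF and within NDF, the DF change within V71 and within PLKO, and the difference of these changes. Adjustment over all rows followed Benjamini and Hochberg. Only 2 arrays a group limit the precision.

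The members, gene lists and tests were chosen with earlier results of these data known. All receptor genes could be named. Those called in some contrast are given on every array and the rest by range, with the nearest member of a class where none was called. Pathway genes are named where called. The fit was tested on simulated data for V71 minus PLKO in NDF over 28869 rows: 38, 41, 48 and 49 of 50 rows changed 1.8-, 2-, 3- and 4-fold were recovered, and 7 of 28669 unchanged rows were called. Alternatives changed the normalization, the variance model, the row filter, the fold threshold and the arrays used. The shRNA's target gene was not analysed here.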

Additional observations from a re-analysis of the deposited data

Results flagged for a closer look

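For 3 receptor genes, the test of the difference itself found that the change upon differentiation differed between the lines. The change in V71 minus the change in PLKO was 1.28 for GRM8, 0.96 for GRM7 and -0.99 for GRIA2 on the log2 scale. All 3 pass the limma test in the full set of arrays, and none does without moderation of the variance.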

How the results depend on the processing

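Under 22 other settings, the 29 calls of single receptor genes gave 594 values, of which 552 kept the call, 42 lost it and none changed sign. Every call for V71 minus PLKO in NDF and every interaction call was lost without moderation of the variance (0 receptor genes and 0 other pathway genes in each), where DF kept 3 receptor genes and 1 pathway gene and DF minus NDF in V71 kept 5 pathway genes. With a fold of at least 2, 2 receptor genes were called in DF, 2 in NDF, 4 for DF minus NDF in PLKO and 1 for the interaction, and with no fold threshold 12 for DF minus NDF in V71. Median centring and cyclic loess each called 2 pathway genes in NDF. The difference of the GABRG3 changes passed with quantile normalization again (0.69), cyclic loess (0.71), without dim rows (0.67) and with adjustment over rows with 1 gene (0.67). Other calls were gained. Median centring called GRM8 in NDF (0.59), and cyclic loess called GRIA1 for DF minus NDF in V71 (0.59). With 1 array left out, others moved past the fold threshold. Without PLKO DF replicate 1, GABRA3 was 0.62 and GABRA5 -0.62 for DF minus NDF in PLKO. Without V71 DF replicate 1, GRIN1 was -0.69 for V71 minus PLKO in DF. For DF minus NDF in V71, GRIA1 was then 0.64 and GRM2 -0.60. In that contrast GABRA3 was 0.59 without V71 NDF replicate 3, and GRIK4 0.60 without V71 DF replicate 2. Leaving out 1 array at a time gave 1 to 3 receptor genes for the interaction, and pathway genes ranged over 0 to 2 for the interaction, 1 to 2 in NDF, 2 to 5 in DF and 6 to 11 for DF minus NDF in PLKO. Without PLKO NDF replicate 3, 1 receptor gene and 0 pathway genes were left for the interaction, and without PLKO DF replicate 1 the pathway genes were 5 in DF and 11 in PLKO.

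Replicate numbers were shared between the lines, but nothing in the labels makes them a pairing (correlation of same-numbered deviations 0.188 in DF and -0.176 in NDF). With the replicate number as a block, 7 receptor genes were called in DF and 5 in NDF, the same genes as without it. Crossing the numbers in NDF, an alternative chosen after seeing the data, also called 5. DF and NDF shared 1 number only, so there is no block fit for DF minus NDF. With 2 arrays a group, small changes of dim genes are not measured well.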
